A study of Mus musculus with 6 samples.

Results

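Of 39 genes listed for glucose uptake, glycolysis, lactate handling, the pentose phosphate pathway and the entry of pyruvate into mitochondria, 34 were measured and are described here, out of 19937 genes on the array. A gene counted as measured where a probe set (the group of array probes that reports a transcript) was paired with its symbol alone, and its brightest probe set stood for it. The genes Gpi1, Pfkfb1, Gapdh, Eno1 and G6pdx had no such probe set and were not analysed here. The cells were pro-B cells, early B lineage cells, transformed with the v-Abl oncogene and grown in culture. All 6 samples carried the genotype Foxo1f/f; ERCre on a C57/BL6 background, that is, floxed alleles of the transcription factor Foxo1 and a Cre recombinase that tamoxifen switches on. The groups were 3 samples given 1 µM tamoxifen for 2 days, labelled as Foxo1 knockout, and 3 untreated samples, labelled as wild type although they carry the same floxed alleles and Cre. Tamoxifen itself and the loss of Foxo1 cannot be told apart in this design. The number of clones, and the promoter that drives Cre, are not given in the sources used here. Separate cultures are not stated in the labels for the replicates, so the p-values cover the spread among these 6 samples, which could be technical.

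Glycolysis converts glucose to pyruvate in the cytosol and yields ATP without oxygen. Pyruvate is then either reduced to lactate and exported with a proton, or carried into mitochondria and oxidised to acetyl-CoA by the pyruvate dehydrogenase complex. The pentose phosphate pathway branches off at glucose 6-phosphate and supplies NADPH and ribose for nucleotides. Proliferating lymphocytes and Abl-transformed cells are known for high glucose use, and FOXO factors are nuclear targets that the kinase AKT, a promoter of glucose uptake, switches off.

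The targeted gene Foxo1 had intensities of 116, 151 and 134 in tamoxifen samples 1, 2 and 3, against 806, 624 and 512 in untreated samples 1, 2 and 3, and fell by limma (log2 fold change -2.13 ± 0.15 SE, adjusted p = 0.0178). The sources used here do not say whether its probe set lies in the deleted part. The precision is limited by the number of arrays, whose medians ran from 100.9 to 109.1. Of 12 pro-B cell markers 11 were measured, and all but Rag1 lay at or above the median brightness of all probe sets. None of the 11 passed the adjusted test. At an unadjusted p under 0.05, 5 were higher in tamoxifen cells (Igll1, Vpreb1, Cd79a, Cd79b and Pax5), where 2.96% of all genes were, and 2 were lower (Ebf1 at a log2 fold change of -0.51 and Dntt at -1.26), where 2.19% were. Of other cells, 0 of 6 myeloid markers, 1 of 5 T cell markers (Cd3e), 2 of 3 erythroid markers (Epor and Gata1) and 3 of 4 stromal markers (Col1a1, Col1a2 and Col3a1) lay at or above that brightness, the highest mean being 202 for Col1a1. None of these passed an unadjusted p of 0.05. The 5 measured T cell markers summed to between 264 and 330 in tamoxifen samples and between 267 and 349 in untreated samples. The 6 myeloid markers summed to between 351 and 362 in tamoxifen samples and between 356 and 401 in untreated samples. The 3 erythroid markers summed to between 266 and 291 in tamoxifen samples and between 279 and 302 in untreated samples. The 4 stromal markers summed to between 532 and 605 in tamoxifen samples and between 519 and 659 in untreated samples. The part of these markers in the values below was not tested. Fewer cells of a type and less RNA per cell cannot be told apart in bulk RNA.

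No member passed the test for a difference between the groups, and the log2 fold changes farthest from 0 were those of the lactate transporter Slc16a1 (-0.57) and the triose phosphate isomerase Tpi1 (-0.45). With limma and Benjamini-Hochberg adjustment over all 34760 probe sets, 0 of 34 members passed an adjusted p of 0.05, where 0.0853% of all genes did. At an unadjusted p under 0.05, 5 members were lower in tamoxifen cells, where 2.19% of all genes were, and 1 was higher, where 2.96% were. The 5 were Slc16a1, Tpi1, the hexokinase Hk2, the glucose transporter Slc2a1 and the phosphoglycerate kinase Pgk1. The 1 was Pfkfb3, a regulator of phosphofructokinase. The count in both directions was 6 (17.6% of 34), where 5.15% of all genes passed. All 6 were among the 28 members at or above the median brightness of all probe sets (21.4%). Of all genes at or above that brightness, 7.80% passed. Scaling to a common median gave 1 of 34, a smaller share than the 3.76% of all genes. No further normalization gave 3, where 4.11% of all genes passed. The count was 2 without tamoxifen sample 2 (3.49% of all genes) and 3 without tamoxifen sample 3 (3.75%). It was 3 without untreated sample 2 (5.65%) and 9 without untreated sample 3 (3.88%). The log2 fold change was below 0 in 24 of 34 members, with a median of -0.06, against 55.5% of all genes and a median of -0.01. Fold changes are on the scale log2(intensity + 16), which understates the change of dim genes.

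The pathway steps differed in their counts, as the plot of changes by step shows. From glucose uptake through lactate export, leaving out the phosphofructokinase regulators, 15 of 19 members were lower, with a median log2 fold change of -0.16. Of all genes 55.5% were lower. The plan named the steps singly and not this route. Of the 3 regulators left out, 1 was lower and 2 were higher, among them Pfkfb3. Of the 24 lower members 62.5% lay on the route, which held 55.9% of the 34 members. All 5 lower members at an unadjusted p under 0.05 lay on it as well, where 2.19% of all genes were lower at that p. In the pentose phosphate pathway 5 of 6 were lower but with a median of -0.04, and at pyruvate entry 3 of 6 were lower, with a median of -0.02. Neither of these branches had a member at an unadjusted p under 0.05, where 5.15% of all genes passed. With 6 members each, a count of 0 cannot be told apart from that share. The 28 members at or above the median brightness of all probe sets had a median of -0.10, and the 6 dimmer ones (Slc2a3, Hk3, Pfkfb4, Eno2, Ldhb and Pdk2) had 0.03. Among all genes at or above that brightness 53.7% were lower, with a median of -0.01. A difference between steps was not tested.

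**Figure D1:**
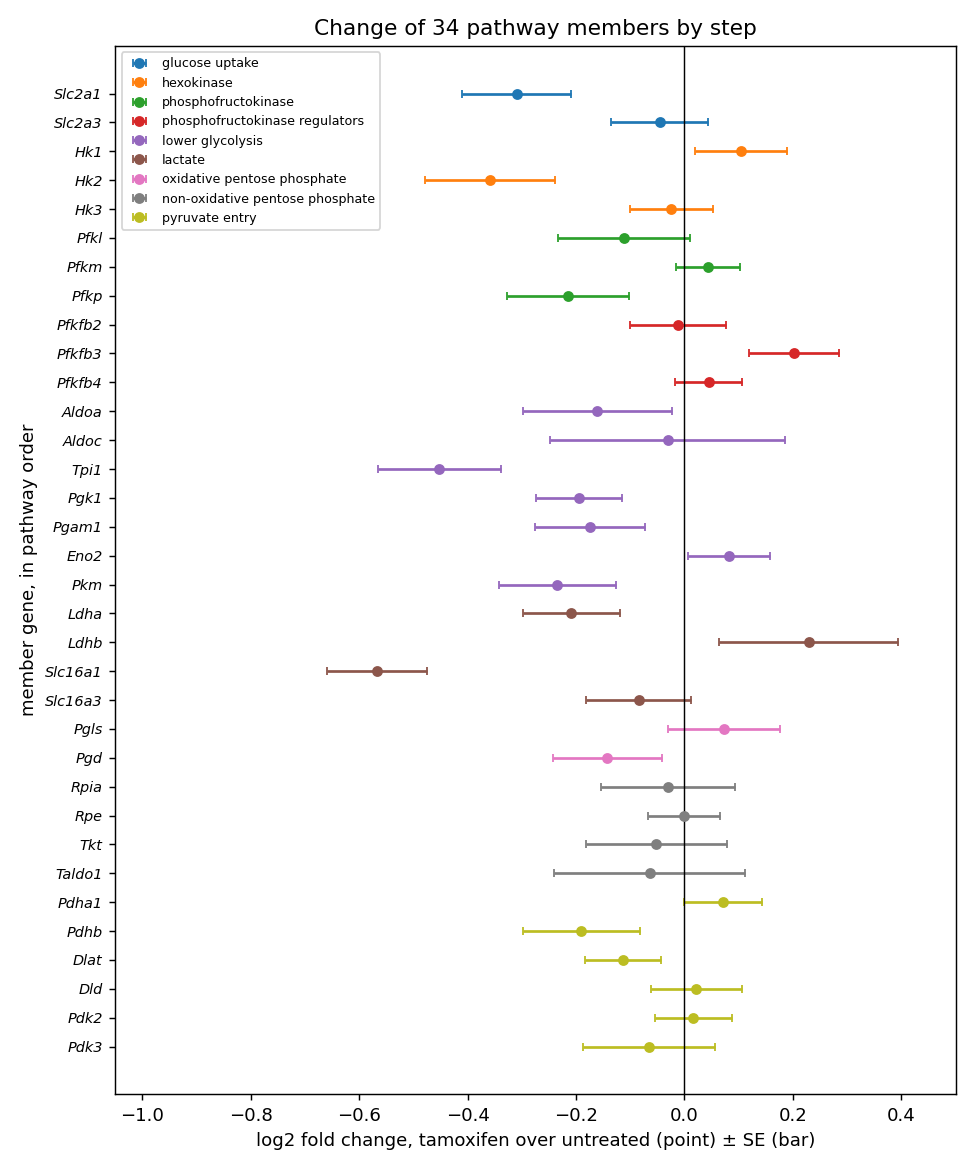
Log2 fold change of tamoxifen over untreated cells (x axis) with its limma SE (bars) for the 34 measured members (y axis, in pathway order), coloured by step, from 3 arrays a group. Slc16a1 at -0.57 and Tpi1 at -0.45 lie farthest to the left, and Ldhb at 0.23 and Pfkfb3 at 0.20 farthest to the right.

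Slc16a1 encodes the monocarboxylate transporter MCT1, which moves lactate and protons across the plasma membrane. Its intensity was 449, 365 and 340 in tamoxifen samples 1, 2 and 3, against 621, 576 and 505 in untreated samples 1, 2 and 3. Every tamoxifen value lay below every untreated value. The mean was 385 ± 57.5 in tamoxifen cells and 567 ± 58.7 in untreated cells (SD, n = 3 each), and the log2 fold change was -0.57 ± 0.09 (SE, limma adjusted p = 0.220). It was the only member with groups that did not overlap in the deposited intensities, where 4.77% of all genes did not overlap downward. Its unadjusted p stayed under 0.05 in all 17 alternatives that could change it. Its adjusted p passed only in the test over 19937 genes with averaged probe sets (0.0482, where the alternatives ranged from 0.0482 to 0.845).

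Among the other lactate genes, Ldha, the lactate dehydrogenase subunit that favours making lactate, measured 4120, 3562 and 3700 in tamoxifen samples 1, 2 and 3, against 4817, 4434 and 3874 in untreated samples 1, 2 and 3. Its tamoxifen 1 value overlapped the untreated range, and its log2 fold change was -0.21 ± 0.09 (SE, limma adjusted p = 0.988), or -0.13 without untreated sample 1. Slc16a3, the transporter MCT4, had -0.08 ± 0.10 (SE), with overlapping groups. Ldhb, the subunit that favours using lactate, was dim at 76.0 ± 6.66 in tamoxifen cells and 64.4 ± 17.5 in untreated cells (SD, n = 3 each). Its log2 fold change of 0.23 ± 0.17 (SE) came mainly from untreated sample 1, at 44.7 where the other two were 78.1 and 70.5, and without that sample it was 0.06. Another, dimmer Ldhb probe set had means of 43.5 in tamoxifen and 43.2 in untreated cells, a log2 fold change of 0.02 ± 0.08 (SE).

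Glucose enters the cell through facilitated transporters and is trapped by hexokinases. Slc2a1, the transporter GLUT1, measured 358, 287 and 305 in tamoxifen samples 1, 2 and 3, against 415, 435 and 324 in untreated samples 1, 2 and 3. Untreated sample 3 lay inside the tamoxifen range, and the log2 fold change was -0.31 ± 0.10 (SE, limma adjusted p = 0.791). Slc2a3, the transporter GLUT3, was dim and had -0.05 ± 0.09 (SE). Hk2, the inducible hexokinase, measured 261, 206 and 234 in tamoxifen samples 1, 2 and 3, against 355, 293 and 257 in untreated samples 1, 2 and 3. Its groups overlapped by tamoxifen sample 1 alone, and the log2 fold change was -0.36 ± 0.12 (SE, limma adjusted p = 0.820). Hk3, a hexokinase of myeloid cells, was dim, with -0.02 ± 0.08 (SE).

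The value of Hk1, the widely expressed hexokinase, depended on the probe set. The brightest one measured 5669, 5084 and 4683 in tamoxifen samples 1, 2 and 3, against 4433, 5058 and 4823 in untreated samples 1, 2 and 3, a log2 fold change of 0.10 ± 0.08 (SE). The other measured 154, 127 and 142 in tamoxifen samples 1, 2 and 3, against 173, 171 and 151 in untreated samples 1, 2 and 3, and its log2 fold change was -0.21 ± 0.10 (SE, limma adjusted p = 0.9995). The groups overlapped in both. Probe set numbers on this array run by chromosome, since 97.2% of those with a symbol had the chromosome most common among the 10 neighbours on each side. The number of the brightest Hk1 probe set lies among genes of chromosome 14, whereas RefSeq places Hk1 on chromosome 10, where the other one lies. What that probe set reports, and with it the direction of Hk1, is uncertain.

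The brightest Pkm probe set also lay among genes of another chromosome, but both Pkm probe sets were lower. The one among genes of chromosome 5 had -0.23 ± 0.11 (SE), and the one on chromosome 9, where RefSeq places Pkm, had -0.13 ± 0.11 (SE). The single Pgam1 probe set lay among genes of chromosome 7, whereas the gene is on chromosome 19. The dimmer Ldhb probe set lay among genes of chromosome 19, whereas RefSeq places Ldhb on chromosome 6, where its brightest one lies. With probe sets limited to each gene's own chromosome, 33 members were left, of which 24 were lower, with a median log2 fold change of -0.06.

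Phosphofructokinase commits sugar to glycolysis, and the Pfkfb enzymes set the level of its activator, fructose 2,6-bisphosphate. Pfkp, the platelet-type subunit, measured 1427, 1473 and 1390 in tamoxifen samples 1, 2 and 3, against 1461, 1902 and 1603 in untreated samples 1, 2 and 3. Only tamoxifen sample 2 reached above the lowest untreated value, and the log2 fold change was -0.21 ± 0.11 (SE, limma adjusted p = 0.9995). It was -0.12 without untreated sample 2 and -0.32 without untreated sample 1. The liver-type Pfkl had -0.11 ± 0.12 and the muscle-type Pfkm 0.04 ± 0.06 (SE). Pfkfb3, the inducible form that favours making the activator, measured 597, 493 and 504 in tamoxifen samples 1, 2 and 3, against 513, 450 and 401 in untreated samples 1, 2 and 3. Its groups overlapped by untreated sample 1, and the log2 fold change was 0.20 ± 0.08 (SE, limma adjusted p = 0.974). Its unadjusted p stayed under 0.05 in 7 of 17 alternatives. Pfkfb2 and Pfkfb4 had -0.01 ± 0.09 and 0.04 ± 0.06 (SE).

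In lower glycolysis, 6 of 7 measured members were lower, where 55.5% of all genes were. Tpi1, which interconverts the 3-carbon sugars made by aldolase, measured 1085, 897 and 902 in tamoxifen samples 1, 2 and 3, against 1453, 1477 and 1038 in untreated samples 1, 2 and 3. Untreated sample 3 lay among the tamoxifen values and the other two well above them. The mean was 961 ± 107 in tamoxifen cells and 1323 ± 247 in untreated cells (SD, n = 3 each), and the log2 fold change was -0.45 ± 0.11 (SE, limma adjusted p = 0.555). Pgk1, which makes the first ATP of the pathway, measured 3740, 3070 and 3096 in tamoxifen samples 1, 2 and 3, against 3559, 4064 and 3614 in untreated samples 1, 2 and 3. Tamoxifen sample 1 lay among the untreated values, and the log2 fold change was -0.19 ± 0.08 (SE, limma adjusted p = 0.961). The aldolase Aldoa had -0.16 ± 0.14, and its brain-type form Aldoc -0.03 ± 0.22 (SE). The mutase Pgam1 had -0.17 ± 0.10 and the dim neuronal enolase Eno2 0.08 ± 0.08 (SE). The pyruvate kinase Pkm had -0.23 ± 0.11 (SE). The reservations about the probe sets of Pkm and Pgam1 are given above.

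**Figure D2:**
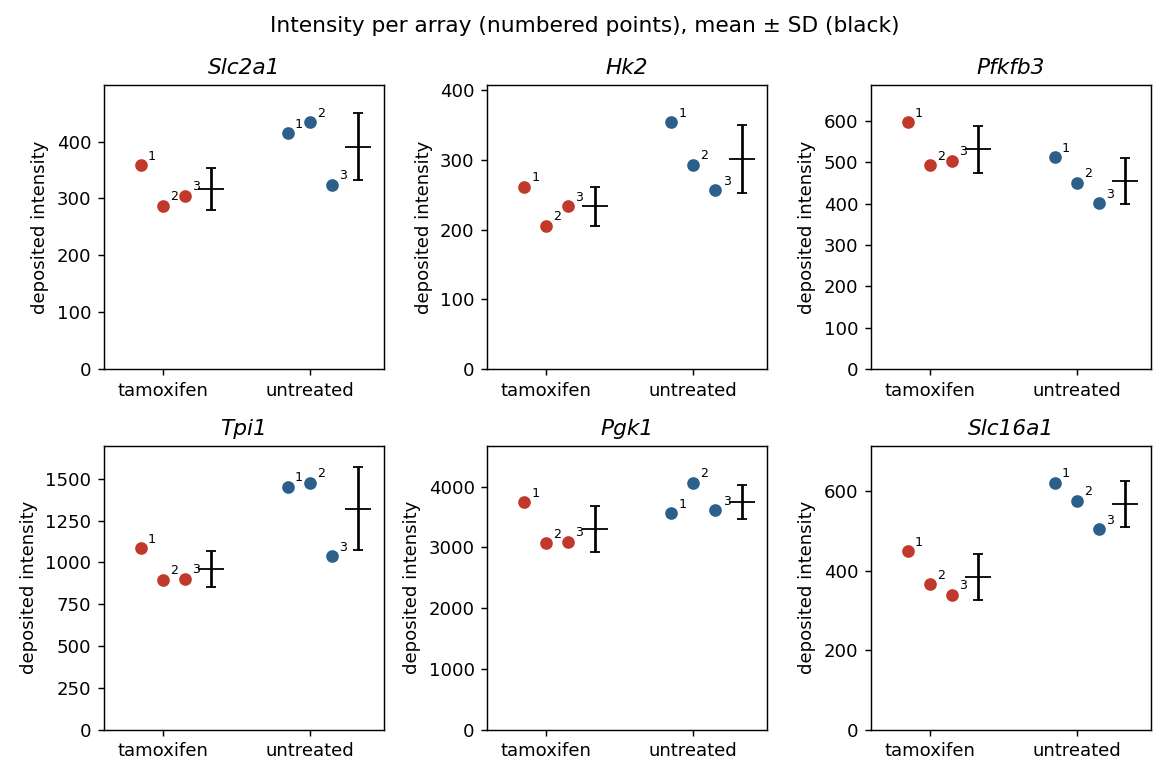
Deposited intensity (y axes, from 0) of the 6 members at an unadjusted p under 0.05 in each array, numbered by replicate, for tamoxifen (left, red) and untreated cells (right, blue), with mean ± SD in black (n = 3 each). The groups overlap in every panel except Slc16a1, where the tamoxifen values of 340 to 449 lie below the untreated values of 505 to 621.

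After quantile normalisation the groups separated in more members than in the deposited values. Of 34 members, 7 had every normalised tamoxifen value below every untreated value, where 5.68% of all genes did, and 1, Pfkfb3, had every one above, where 5.56% did. The 7 were Slc2a1, Hk2, Tpi1, Pkm, Ldha, Slc16a1 and the pyruvate dehydrogenase subunit Dlat. In the deposited intensities the counts were 1 lower and 0 higher, where 4.77% and 4.53% of all genes separated. All but Slc16a1 of these separations therefore rest on the normalisation. The plot of 6 members by setting shows how their values and unadjusted p held under each alternative. Tpi1 stayed under 0.05 in 16 of 17, Hk2 in 15, Slc2a1 in 11 and Pgk1 in 8. The exception for Tpi1 was the common median, where its log2 fold change was -0.42 with an unadjusted p of 0.053. With 1 array left out, the log2 fold changes of these 6 members moved by less than 1.5 times, and those of the other 28 moved by more for at least 1 array. The 6 were picked by p in these same arrays, and a change near 0 passes that factor with a small shift. This split therefore follows in part from the selection and does not test how firm the 6 are.

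**Figure D3:**
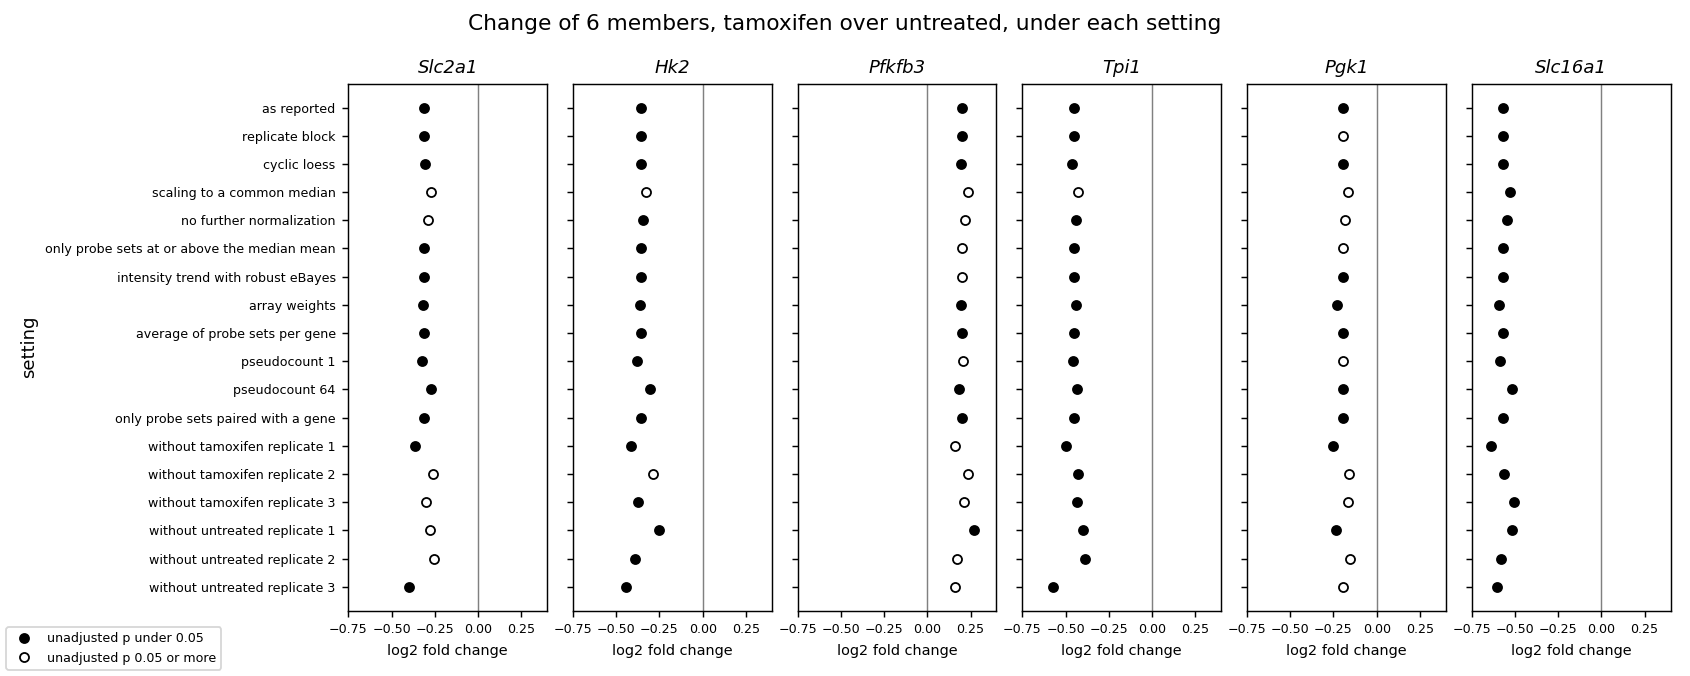
Log2 fold change of tamoxifen over untreated cells (x axes) for 6 members under the fit as reported and 17 alternatives (y axis), filled where the unadjusted limma p was under 0.05 and open where it was not. Slc16a1 is filled in every row and lies between -0.64 and -0.51, while Pfkfb3 is open in 10 rows.

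In the oxidative branch of the pentose phosphate pathway, Pgd, the dehydrogenase that makes NADPH and ribulose 5-phosphate, measured 863, 738 and 811 in tamoxifen samples 1, 2 and 3, against 1016, 913 and 725 in untreated samples 1, 2 and 3. Untreated sample 3 was the lowest of all 6, and the log2 fold change was -0.14 ± 0.10 (SE, limma adjusted p = 0.9995). It was -0.23 without that sample and -0.056 without untreated sample 1. The lactonase Pgls had 0.07 ± 0.10 (SE). In the non-oxidative branch, which rearranges sugars without NADPH, Taldo1, transaldolase, had the largest change, with 187, 140 and 136 in tamoxifen samples 1, 2 and 3, against 194, 167 and 128 in untreated samples 1, 2 and 3. Its log2 fold change was -0.06 ± 0.18 (SE), with a 95% interval of -0.49 to 0.36. Transketolase (Tkt), the isomerase Rpia and the epimerase Rpe had -0.05 ± 0.13, -0.03 ± 0.12 and -0.00094 ± 0.07 (SE). The interval of Rpe was the narrowest of the 4, from -0.16 to 0.16.

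The pyruvate dehydrogenase complex consists of the E1 subunits Pdha1 and Pdhb, the E2 Dlat and the E3 Dld, and is switched off by the kinases Pdk2 and Pdk3. Pdhb measured 377, 319 and 312 in tamoxifen samples 1, 2 and 3, against 333, 445 and 360 in untreated samples 1, 2 and 3. Its groups overlapped, and the log2 fold change was -0.19 ± 0.11 (SE, limma adjusted p = 0.9995). It was -0.10 without untreated sample 2 and -0.29 without untreated sample 1. Its partner Pdha1 had 0.07 ± 0.07, Dlat -0.11 ± 0.07 and Dld 0.02 ± 0.08 (SE). The kinases Pdk2 and Pdk3 had 0.02 ± 0.07 and -0.07 ± 0.12 (SE). Pdk3 spread widely in tamoxifen cells, with 619 in sample 1 and 438 and 410 in samples 2 and 3, against 507, 524 and 464 in untreated samples 1, 2 and 3.

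Arrays of a group differed from each other in these genes by about as much as the groups did, which the map of deviations shows. Each array's deviation was taken from every gene's mean over the 6 arrays, on the normalised log2 scale. The 19 members from glucose uptake to lactate export again leave out the phosphofructokinase regulators. Their median deviation was -0.01, -0.13 and -0.10 in tamoxifen samples 1, 2 and 3, against 0.13, 0.11 and -0.01 in untreated samples 1, 2 and 3. Tamoxifen sample 1 and untreated sample 3 therefore had nearly the same median. Tamoxifen sample 1 was the highest of its group in 20 of 34 members, or 58.8%, where it was the highest in 37.2% of all genes. Untreated sample 3 was the lowest of its group in 19 of 34, or 55.9%, where it was the lowest in 31.0% of all genes. Over all genes the array medians of the deviation lay between -0.03 and 0.03. Without tamoxifen sample 1 the median log2 fold change of the members was -0.11, and without untreated sample 3 it was -0.09. It was -0.019 without tamoxifen sample 2 and -0.04 without untreated sample 1.

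**Figure D4:**
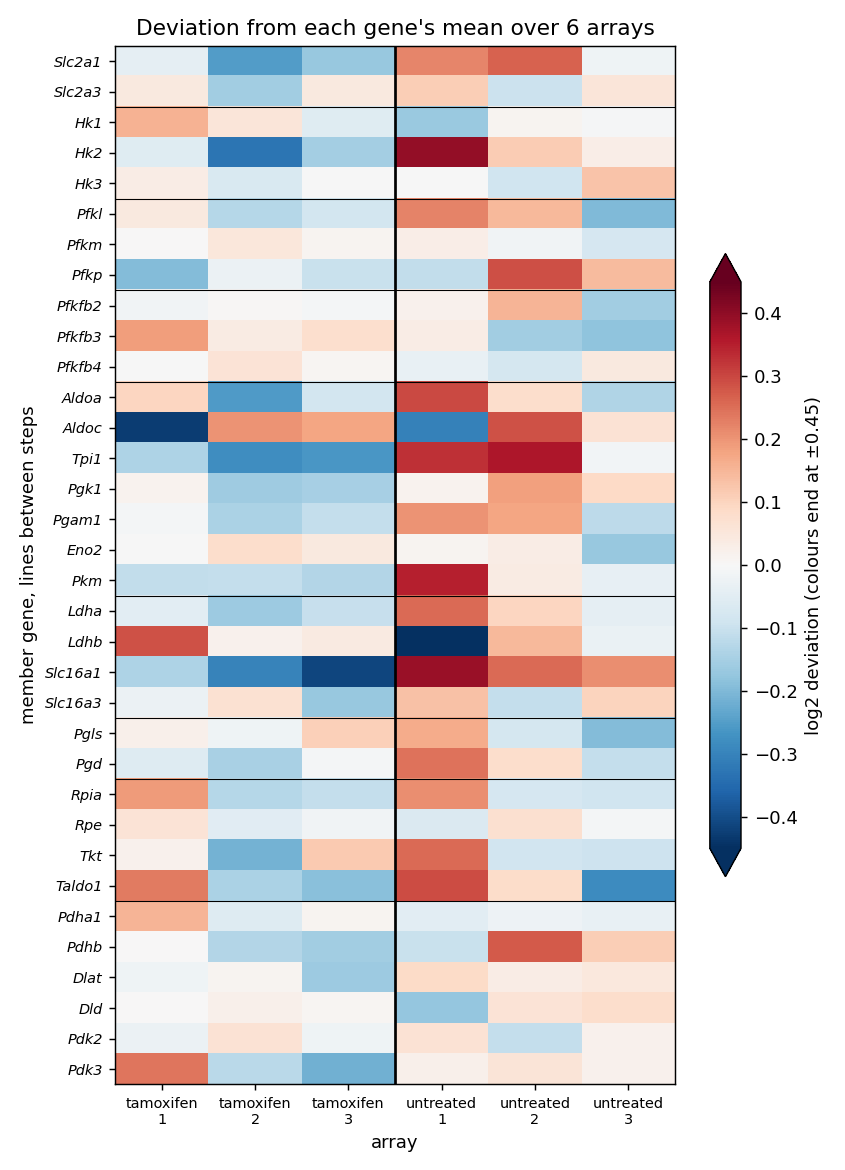
Deviation of each array (x axis, tamoxifen left of untreated) from the gene's mean over 6 arrays, on the normalised log2 scale (colour, ending at ±0.45), for the 34 members (y axis, lines between steps). Tamoxifen samples 2 and 3 are mostly blue and untreated samples 1 and 2 mostly red along glycolysis, while tamoxifen sample 1 and untreated sample 3 are paler or mixed.

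Several steps are shared by isozymes, and the change of 1 form was set against another in 11 pairs by the difference of their normalised log2 values in each array. With 3 arrays a group an exact two-sided permutation test cannot go below p = 0.1, and 5 pairs reached that value, each with an adjusted p = 0.22 over the 11 pairs. The first gene of each of these 5 already had separate groups by its own normalised values, and some of the 11 pairs share a gene. The pair test is therefore not independent of that separation. The log2 fold change of Slc16a1 minus that of Slc16a3 was -0.48 ± 0.10 (SE). The same difference was -0.46 ± 0.19 for Hk2 over Hk1 (by its uncertain brightest probe set), -0.44 ± 0.26 for Ldha over Ldhb, and -0.26 ± 0.13 for Slc2a1 over Slc2a3 (SE). For Pfkfb3 over Pfkfb2 it was 0.21 ± 0.11 (SE). With the Hk1 probe set on chromosome 10, Hk2 over Hk1 had -0.15 ± 0.08 (SE, exact permutation p = 0.1). In 4 of the 5 pairs 1 array moved the difference by over 1.5 times. Without untreated sample 1, Ldha over Ldhb had -0.19 and Hk2 over Hk1 had -0.30. Without untreated sample 2, Slc2a1 over Slc2a3 had -0.15 and Pfkfb3 over Pfkfb2 had 0.11. Slc16a1 over Slc16a3 stayed between -0.55 and -0.42. Pfkp over Pfkl, Aldoa over Aldoc and Pdk3 over Pdk2 had differences of -0.10 ± 0.22, -0.13 ± 0.40 and -0.08 ± 0.17 (SE), with exact permutation p of 0.7, 0.5 and 0.6. The remaining 3 pairs, Hk2 over Hk3, Pfkp over Pfkm and Pfkfb3 over Pfkfb4, had exact permutation p of 0.2, 0.3 and 0.2.

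**Figure D5:**
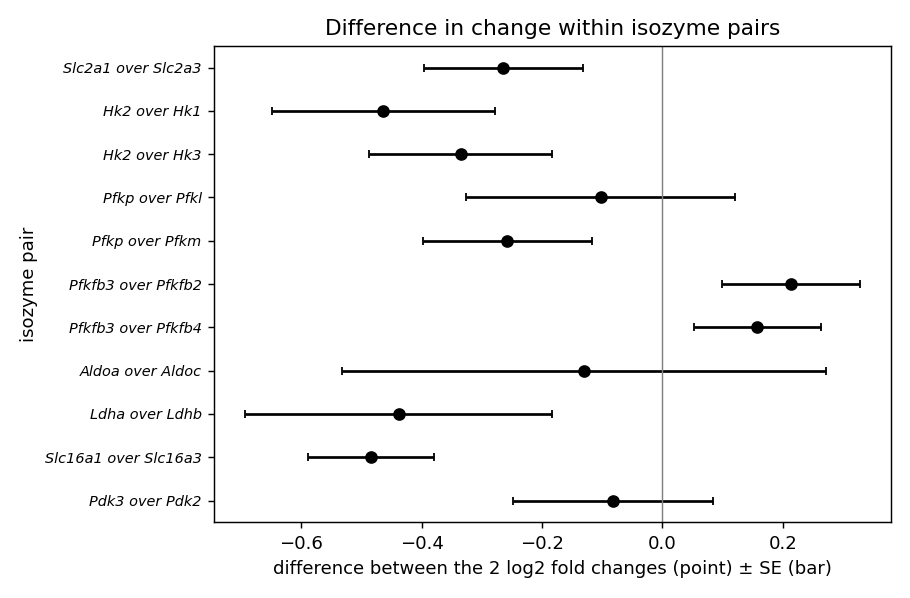
Difference between the log2 fold changes of the first and the second gene of each pair (x axis, point) with its SE over 3 arrays a group (bar), for 11 isozyme pairs (y axis), with Hk1 by its brightest probe set. Slc16a1 over Slc16a3, at -0.48, has the narrowest bar of the pairs left of 0, and Pfkfb3 over Pfkfb2 is farthest right at 0.21.

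Other genes of the same routes, from a list of 39 of which 35 were measured, were lower in 17 and higher in 18, with a median log2 fold change of 0.01. None passed the adjusted test. At an unadjusted p under 0.05, 4 were lower, where 2.19% of all genes were, and 0 were higher, where 2.96% were. Pdp1, the phosphatase that switches the pyruvate dehydrogenase complex on, measured 404, 412 and 461 in tamoxifen samples 1, 2 and 3, against 576, 654 and 580 in untreated samples 1, 2 and 3. Its groups did not overlap, and the log2 fold change was -0.50 ± 0.10 (SE, limma adjusted p = 0.340). Of the 35 genes, 4 including Pdp1 did not overlap downward in the deposited intensities, where 4.77% of all genes did not. Upward it was 1, where 4.53% of all genes did not. The ADP-dependent glucokinase Adpgk had -0.19 ± 0.07, the mitochondrial PEP carboxykinase Pck2 -0.18 ± 0.07, and Prps1, which uses ribose phosphate for nucleotides, -0.26 ± 0.11 (SE). Bsg, the chaperone that carries Slc16a1 to the membrane, had -0.13, and the pyruvate carrier subunit Mpc1 had 0.16.

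Many glycolytic genes are targets of the hypoxia factor HIF-1, and 16 hypoxia-responsive genes outside the members were split. Of these 8 were lower and 8 higher, with a median log2 fold change of 0.0012 and 0 past the adjusted test. At an unadjusted p under 0.05, 2 were lower (Bnip3 and P4ha1), where 2.19% of all genes were. In the other direction 1 was higher (Vegfa), where 2.96% were. P4ha1 had -0.30 ± 0.10 (SE, limma adjusted p = 0.862). Bnip3, a mitochondrial protein, measured 724, 520 and 460 in tamoxifen samples 1, 2 and 3, against 1017, 1407 and 999 in untreated samples 1, 2 and 3 (log2 fold change -1.01 ± 0.17 SE, limma adjusted p = 0.227). Vegfa, a growth factor for blood vessels, lay in the other direction, with 1371, 1493 and 1590 in tamoxifen samples 1, 2 and 3, against 896, 1165 and 1197 in untreated samples 1, 2 and 3 (0.44 ± 0.16 SE, limma adjusted p = 0.882). Hif1a itself had 0.03 ± 0.09 (SE). Of 6 measured proliferation genes 3 were lower and 3 higher, with 0 at an unadjusted p under 0.05. Their part in the values of the members was not tested.

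The start sites of the 4 members with the largest changes at an unadjusted p under 0.05 are shown to set their sequence beside their values. Each window, from RefSeq on build GRCm38.p6, runs from 250 bases before to 50 bases after the start, 5′ to 3′ on the gene's strand. Those of Slc16a1 (chr3:104638414-104638713, plus strand), Tpi1 (chr6:124814109-124814408, minus strand), Hk2 (chr6:82774405-82774704, minus strand) and Slc2a1 (chr4:119108495-119108794, plus strand) follow. Capitals mark matches on either strand to the FOXO core GTAAACA, the E box CACGTG that MYC binds, and the hypoxia response core ACGTG or GCGTG, which an E box also contains.
Slc16a1: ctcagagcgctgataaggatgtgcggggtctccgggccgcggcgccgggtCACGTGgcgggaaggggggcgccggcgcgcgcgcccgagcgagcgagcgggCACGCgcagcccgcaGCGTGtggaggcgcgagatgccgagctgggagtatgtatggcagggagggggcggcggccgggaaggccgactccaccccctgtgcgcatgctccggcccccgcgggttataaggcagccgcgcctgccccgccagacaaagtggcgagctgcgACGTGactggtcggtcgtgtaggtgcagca
Tpi1: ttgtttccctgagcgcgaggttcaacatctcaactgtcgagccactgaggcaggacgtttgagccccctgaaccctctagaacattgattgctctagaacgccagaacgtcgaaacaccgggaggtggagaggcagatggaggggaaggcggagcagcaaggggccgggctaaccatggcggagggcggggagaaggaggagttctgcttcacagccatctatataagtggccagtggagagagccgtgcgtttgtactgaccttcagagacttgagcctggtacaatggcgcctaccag
Hk2: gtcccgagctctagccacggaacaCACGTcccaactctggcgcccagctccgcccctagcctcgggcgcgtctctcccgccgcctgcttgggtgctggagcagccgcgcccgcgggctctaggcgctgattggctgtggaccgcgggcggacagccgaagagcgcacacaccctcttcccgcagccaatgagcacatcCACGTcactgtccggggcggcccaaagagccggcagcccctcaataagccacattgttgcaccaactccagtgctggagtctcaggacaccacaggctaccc
Slc2a1: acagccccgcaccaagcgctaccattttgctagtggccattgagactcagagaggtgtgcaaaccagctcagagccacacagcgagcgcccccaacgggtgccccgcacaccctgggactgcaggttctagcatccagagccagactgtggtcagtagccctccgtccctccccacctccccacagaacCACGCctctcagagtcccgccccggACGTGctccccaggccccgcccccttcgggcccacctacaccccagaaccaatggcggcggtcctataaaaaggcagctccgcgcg

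The Slc16a1 window held 5 matches to the hypoxia response core, of which 2 were the strands of its E box. The Hk2 and Slc2a1 windows held 2 each, and the Tpi1 window held none of the motifs. None of the 4 windows held the FOXO core, which was found in 1 of 47 windows of the members (2.13%, that of Aldoc) and in 3.65% of all 32851 windows. The hypoxia response core was in 36 of the 47 windows (76.6%), against 43.8% of all windows, and the E box in 6 (12.8%), against 7.15%. The median GC content was 61.0% in the windows of the members and 52.7% in all windows, and the letters of the E box and the hypoxia response core include CG. In all, 33 of the 34 members had a window in the table. A match describes letters only, and no match says only that those letters are not in this window.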

How the data were processed

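Total RNA from 3 tamoxifen-treated and 3 untreated samples was analysed on a gene-level array. Biotinylated cRNA was made from 200 ng of RNA by a NuGen protocol, per the labels. The authors deposited a linear intensity for each probe set in each array. The sources used here do not give their background correction, summarisation and normalisation, or any scan batches. Groups and replicate numbers came from the titles.

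Intensities were converted to log2(value + 16), quantile normalised, and compared in R 4.3.3 with limma 3.58.1 (lmFit, then eBayes, two-sided), without a block, over all 34760 probe sets. Values printed per sample are the deposited ones. The platform's table paired 21640 probe sets with 1 symbol, 1321 with several and did not list 11799. No control probe set is marked, so none was left out. The brightest probe set stood for the 954 genes with several. Members were named by step. Values in every sample were given for members at an unadjusted p under 0.05, the largest change of each step, and members whose probe sets differ in sign; the values of Ldha, Pdk3 and of non-members were added after they were seen. The members and lists were chosen with earlier results of these data known. The isozyme pairs and the chromosome of the neighbouring probe sets were added in the same way. Only the main limma fit was tested on simulated data with known changes.

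The labels do not state that the replicate numbers pair samples, so the numbers were not taken as pairs. The deviations of same-numbered samples correlated at 0.256, 0.0547 and 0.302, and those of differently numbered samples at -0.42 to 0.248. These values do not settle whether the numbers mark pairs. Alternatives were a replicate block, each array left out, cyclic loess, scaling to a common median, no further normalisation, dim probe sets left out, array weights, robust eBayes with a trend on intensity, averaged probe sets, pseudocounts of 1 and 64, only probe sets paired with a gene, and own-chromosome probe sets. Tests between pairs used scipy 1.17.1, and figures matplotlib 3.10.9.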

Additional observations from a re-analysis of the deposited data

How the results depend on the processing

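The own-chromosome setting and the left-out arrays for isozyme pairs were chosen after the data were seen. In the main fit 24 of 34 members were lower, where 55.5% of all genes were. An unadjusted p under 0.05 was found for 6, where it was for 5.15% of all genes. Past the adjusted test were 0, where 0.0853% were, and the median log2 fold change was -0.06. With 1 array left out these values of the members ran from 20 to 24, from 2 to 9, from 0 to 0 and from -0.11 to -0.019. Of all genes 48.1% to 60.8% were then lower, and 3.49% to 5.73% had an unadjusted p under 0.05. The lower shares of members and of all genes lay closest without tamoxifen 3 (58.8% and 56.4%). They lay farthest apart without untreated 3 (70.6% and 52.9%). The count of 2 at that p came without tamoxifen 2 (3.49% of all genes) and the 9 without untreated 3 (3.88%). A count of 3 came without tamoxifen 3 (3.75%) or untreated 2 (5.65%). The median was -0.11 without tamoxifen 1, -0.089 without untreated 3, -0.036 without untreated 1, -0.019 without tamoxifen 2 and -0.098 over probe sets at or above the median brightness. Under a common median 1 member (Slc16a1) had an unadjusted p under 0.05, where 3.76% of all genes had. With no further normalisation 3 members had, where 4.11% of all genes had. The cause was not tested. With averaged probe sets 1 passed the adjusted test, Slc16a1, whose log2 fold change stayed at -0.57. Fewer features were tested there, and its unadjusted limma p also fell, from 0.000613 to 0.000172. With the replicate block 7 members had an unadjusted p under 0.05, where 6.72% of all genes had, and 0 passed the adjusted test. Members near 0 changed sign. Pfkfb2 had 0.0098 under a common median and 0.015 with array weights, Rpe 0.036 under a common median and 0.019 with no further normalisation, where Pdk2 had -0.00043, and Aldoc 0.061 with array weights. Hk1 had -0.052 with averaged probe sets and -0.21 on its own chromosome. With 1 array left out, signs changed in Rpia (-0.13 to 0.066), Rpe (-0.033 to 0.036), Hk3 (-0.075 to 0.033), Aldoc (-0.19 to 0.17), Pdk2 (-0.034 to 0.053), Tkt (-0.12 to 0.063), Taldo1 (-0.23 to 0.066), Slc2a3 (-0.10 to 0.022), Pdk3 (-0.20 to 0.027), Dld (-0.061 to 0.067), Pfkfb2 (-0.094 to 0.062) and Pgls (-0.0070 to 0.17). Of the isozyme pairs, Pfkp over Pfkl ran from -0.29 to 0.049 and Aldoa over Aldoc from -0.42 to 0.14. The signs of the 6 members at an unadjusted p under 0.05, picked in these same arrays, were kept in all 17 alternatives. Signal limits the 6 dim members, with mean intensities of 56.2 to 92.9 where the array medians were 100.9 to 109.1.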
